A study of Mus musculus with 4 samples.

Results

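The kappa variable genes (symbols starting with Igkv) are the segments that give the variable domain of the kappa light chain of the B cell receptor. All features with such a symbol were taken, which gave 160 genes of the 32287 features listed for each of 4 libraries. Their use was read in B cells of mouse blood, defined as cells with at least 3 summed UMIs (unique molecular identifiers, 1 per captured RNA molecule) of Cd79a, Cd79b and Ms4a1 and no UMI of Cdkn2a. By that rule 11485 B cells were found among 16157 barcodes. Usage was counted in 2 ways. In the first, each B cell was given its top Igkv gene, the one with the most Igkv UMIs, at least 2 and no tie, and the share of cells per gene was taken. In the second, each gene's share of all Igkv UMIs of the B cells was taken.

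All mice were C57BL/6J, aged 10 weeks, had received leukaemia cells of a mouse model of acute lymphoblastic leukaemia (ALL) and were treated with dasatinib, a tyrosine kinase inhibitor. Blood leukocytes were drawn 1 week into dasatinib, with every mouse in remission, frozen, and later thawed and sorted for live cells. Dasatinib went on for 4 more weeks, and status at day 100 after inoculation put 6 mice in the Cured and 6 in the Relapsed group. Cells of 3 mice were pooled per library, so each group has 2 libraries, the pool is the replicate, and the mouse of a given cell is not known. There was no untreated or leukaemia-free group.

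In a developing B cell, 1 Igkv segment is joined to 1 of the kappa J segments upstream of the constant gene Igkc. Segments that lie in the same orientation as Igkc join by deletion of the DNA between, and those in the opposite orientation by inversion. A B cell that keeps a working kappa chain normally stops rearranging, so most B cells carry 1 expressed light chain. The 5′ chemistry used here reads transcripts from their start, where the variable segment lies.

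The 160 genes lie on chromosome 6 of GRCm38 from 67555497 to 70704177, over 3148.68 kb, all at lower coordinates than Igkc (70726435 to 70726966, plus strand). In the GENCODE annotation 100 of them are variable genes and 60 are variable pseudogenes. Of the 160, 85 lie opposite to Igkc and 75 in its orientation. The ends of 6 segments are shown because they belong to the 5 most used genes and to Igkv4-59, whose UMIs came mostly from 1 cell in 1 library. Each run is the last 60 bases of the annotated coding sequence, 5′ to 3′, where the segment is joined to J. The capitals mark the last in-frame cysteine codon, the conserved cysteine from which the third complementarity-determining loop, an antigen contact, begins.
Igkv10-96: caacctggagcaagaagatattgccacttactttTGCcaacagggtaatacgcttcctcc
Igkv1-117: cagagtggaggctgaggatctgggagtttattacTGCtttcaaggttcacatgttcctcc
Igkv1-135: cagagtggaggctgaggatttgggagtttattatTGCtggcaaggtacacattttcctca
Igkv1-110: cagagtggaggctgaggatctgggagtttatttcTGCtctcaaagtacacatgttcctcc
Igkv6-15: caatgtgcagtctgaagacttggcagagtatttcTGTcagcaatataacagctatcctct
Igkv4-59: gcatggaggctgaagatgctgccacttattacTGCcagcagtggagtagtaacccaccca
They lie at chr6:68631963-68632022 (minus strand), chr6:68121768-68121827 (plus strand), chr6:67610449-67610508 (plus strand), chr6:68271208-68271267 (plus strand), chr6:70406469-70406528 (minus strand) and chr6:69438218-69438277 (minus strand), in the order shown. Among the 15 most used genes the cysteine codon stood 26 bases from the end, counted from its first base, in every one. It was TGT in 11 and TGC in 4 of the 15. In Igkv4-59 that distance was 28 bases.

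Many segments are near copies of each other, which bears on every value below. Over their whole coding sequences, 9 pairs of the 100 variable genes were at least 97% identical, and the 18 genes in these pairs held 23.7% of all top-gene calls (2534 cells). The closest relative of a gene had a median identity of 94.5%. The highest identity was 98.6%, shared by the pairs Igkv5-43 with Igkv5-45 and Igkv6-20 with Igkv6-29. Of the 15 most used genes, 4 belong to such pairs, and their ends are shown with the mismatches to the partner in capitals, to show how few bases tell them apart.
Igkv17-121: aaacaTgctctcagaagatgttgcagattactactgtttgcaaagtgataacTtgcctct
Igkv17-127: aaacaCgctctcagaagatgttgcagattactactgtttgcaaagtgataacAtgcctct
Igkv1-110: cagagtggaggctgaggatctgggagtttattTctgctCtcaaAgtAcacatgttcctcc
Igkv1-117: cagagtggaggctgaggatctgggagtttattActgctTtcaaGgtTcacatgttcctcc
These lie at chr6:68037259-68037318 (plus strand), chr6:67861600-67861659 (plus strand), chr6:68271208-68271267 (plus strand) and chr6:68121768-68121827 (plus strand). Igkv17-121 and Igkv17-127 differ at 9 of 353 coding bases, 2 of them in the end shown. Igkv1-110 and Igkv1-117 differ at 10 of 359, 4 of them in the end shown. How reads that fit more than 1 gene were counted is not given in the sources used here, so the split within such pairs is uncertain. Germline sequences are shown, and rearranged or mutated bases were not read.

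The libraries held 3859 and 4284 barcodes with 9257402 and 10840397 UMIs in Cured replicates 1 and 2, and 3631 and 4383 barcodes with 7184045 and 9859508 UMIs in Relapsed replicates 1 and 2. B cells numbered 2829, 3157, 2174 and 3325, with median UMIs of 2251, 2356, 1880 and 2038, lower in both Relapsed libraries. Cd74, a B cell marker outside the rule, stood at a mean of 61.1, 66.2, 40.2 and 56.1 UMIs per B cell. UMIs of the T cell marker list were found in 3.104% to 3.64% of B cells, of the NK cell list in 2.08% to 3.92%, of the monocyte list in 3.28% to 8.08% and of the neutrophil list in 4.84% to 15.3%. Haemoglobin UMIs were found in 13.8% of the B cells of Relapsed replicate 1 and in 1.49% to 2.26% of those of the other libraries. UMIs of the GFP or BCR_ABL sequence were found in 1 B cell in all. Library pairs shared 20 to 29 barcodes, 8 to 17 of them B cells.

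An Igkv gene was assigned to 10713 of the 11485 B cells. The share was 94.0% (95% exact binomial interval 93.0 to 94.8) in Cured replicate 1 and 93.7% (92.8 to 94.5) in Cured replicate 2. It was 91.4% (90.2 to 92.6) in Relapsed replicate 1 and 93.5% (92.6 to 94.3) in Relapsed replicate 2. Both Cured libraries lay above both Relapsed libraries, and the group difference was 1.38 percentage points (exact two-sided permutation test, p = 0.333, the smallest that 2 against 2 libraries can give). The difference was 0.368 points without Relapsed replicate 1. With each cell thinned to 1000 UMIs the shares were 90.3%, 88.9%, 84.7% and 89.0% in the same order, and 114, 167, 81 and 130 shallower cells were left out. Such intervals cover counting error only.

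A low Igkv signal was found in T cells, which do not use these genes. T cells (at least 2 UMIs of Cd3d, Cd3e and Cd3g, none of the 3 B cell genes) numbered 397, 334, 249 and 273, with median UMIs of 3462, 3190, 3083 and 3145. An Igkv UMI was found in 17.1%, 8.68%, 9.24% and 11.0% of them, a mean of 0.194, 0.102, 0.1004 and 0.117 UMIs per T cell. Only 2, 1, 0 and 1 T cells met the rule for a top gene, 0 of 249 allowing a share of up to 1.20%. B cells carried means of 15.1 to 25.6 Igkv UMIs, far above the means of T cells. A top gene needed only 2 UMIs, so the weakest assignments lay nearer to that background.

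Usage was uneven and its order was alike in all 4 libraries. The 5 most used genes took 22.6% of the assigned cells and the 15 most used 48.7%. It took 16 genes to reach 50% of the cells and 51 to reach 90%, and 37 genes reached a mean of 1%. Of the 100 variable genes, 94 were the top gene of at least 1 cell. The other 6 were Igkv1-131, Igkv20-101-2, Igkv4-78, Igkv4-51, Igkv1-35 and Igkv8-26.

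Igkv10-96 was the most used gene. It was the top gene of 5.64% and 5.20% of assigned cells in the Cured libraries and of 5.94% and 6.08% in the Relapsed libraries, which do not overlap. Igkv1-117 held 4.89%, 4.53%, 5.23% and 4.57% in the order Cured replicates 1 and 2, Relapsed replicates 1 and 2. Igkv1-135 held 4.85%, 4.83%, 5.33% and 4.15%. The means of these 2 genes, 4.81% and 4.79%, differ by less than the spread between libraries. Igkv1-110 came next with 3.39%, 4.06%, 4.58% and 4.41%, lower in both Cured libraries, and its group difference of 0.772 percentage points was the largest among the 15. Igkv6-15 followed at 3.24%, 2.94%, 2.92% and 3.48%.

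The genes in places 6 to 15 were Igkv14-111, Igkv19-93, Igkv6-23, Igkv6-17, Igkv17-127, Igkv12-44, Igkv9-120, Igkv12-46, Igkv17-121 and Igkv3-4, with means from 3.07% down to 2.02%. Neighbours in this order lie closer to each other than the libraries of either. Igkv17-121 was uneven, with 2.63%, 2.40%, 1.51% and 2.41%, lowest in Relapsed replicate 1. Its near copy Igkv17-127 held 3.35%, 2.20%, 2.67% and 2.45%. Of the 15, 6 lie opposite to Igkc, and 6 lie among the 80 genes nearest to it.

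**Figure D1:**
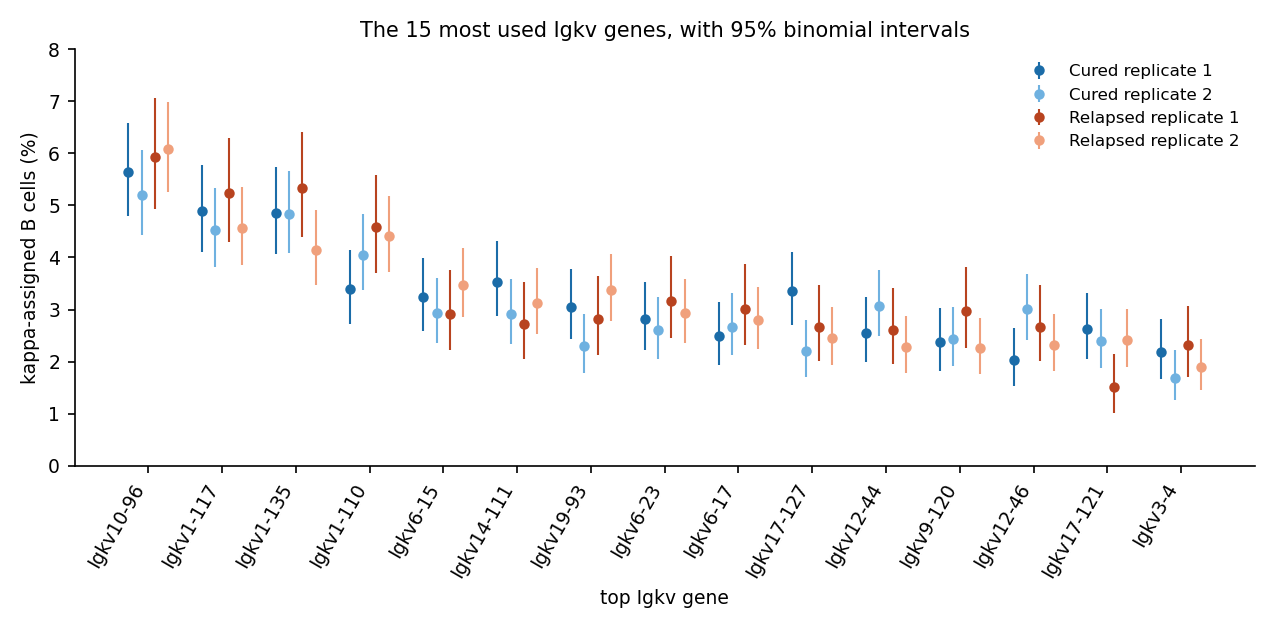
Share of kappa-assigned B cells (y axis, %) with each of the 15 most used Igkv genes as top gene (x axis), 1 point per library with its exact 95% binomial interval, which covers counting error only. Igkv10-96 is highest at 5.20% to 6.08%, and Igkv17-121 dips to 1.51% in Relapsed replicate 1.

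The whole profile was as alike between groups as within them. Over the 160 genes, the share of cells that would have to change gene to turn one library's usage into another's was 9.02% between the Cured libraries and 9.68% between the Relapsed libraries. It was 8.47%, 8.62%, 9.81% and 10.6% in the 4 pairs across groups. Pearson's r over the 160 genes was 0.973 to 0.982 and Spearman's rho 0.970 to 0.986 over the 6 pairs, given as a description across genes that share libraries and counting. Of the 55 genes with a mean of at least 0.5%, 17 (30.9%) had shares that did not overlap between groups, 8 of them higher in Cured and 9 higher in Relapsed. Among the 15 most used there were 4 such genes (Igkv10-96, Igkv1-110, Igkv6-23 and Igkv6-17), all lower in Cured by 0.332 to 0.772 points.

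The effective number of genes (inverse Simpson index, the number of equally used genes that would give the same evenness) was 42.8 and 44.9 in the Cured libraries. It was 40.4 and 42.4 in the Relapsed libraries. The means were 43.9 ± 1.53 and 41.4 ± 1.43 (SD, n = 2 each), a difference of 2.44 (exact two-sided permutation test, p = 0.333, the smallest possible). Taken over Igkv UMIs in place of cells, the index was 34.2 and 36.1 against 34.7 and 34.9, and the groups overlapped.

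A few genes of moderate use stood higher in 1 library than in the others. Among genes reaching 1% in some library, Igkv14-126 had the largest ratio of its highest to its next library, 1.498. It was the top gene of 14 (0.527%), 22 (0.743%), 23 (1.16%) and 24 (0.772%) cells, and the interval of the highest library, 0.735% to 1.73%, overlaps those of the others. Igkv4-68 was highest in Cured replicate 2 (31 cells, 1.05%) against 0.564% to 0.740% elsewhere. Igkv8-28 was highest there too (32 cells, 1.08%) against 0.453% to 0.790%. Igkv3-10 reached 1.42% (44 cells) in Relapsed replicate 2 against 0.715% to 1.05%, and its 98.3% identical relative Igkv3-5 reached 1.13% (35 cells) against 0.755% to 0.845%. In these genes too the interval of the highest library overlapped those of the others. They were picked for their ratio of highest to next library. No library held a gene above 6.08% of its cells.

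Usage along the locus was not even. In blocks of 20 genes counted from Igkc outward, the mean shares were 15.8%, 14.1%, 12.0%, 6.02%, 5.67%, 13.8%, 16.0% and 16.7%. The blocks of places 61 to 100 were thus the least used, between 1149.9 kb and 1815 kb from Igkc. Places 121 to 140 held the most per variable gene, 2.29% over 7 variable genes (Igkv1-117, Igkv1-110 and Igkv14-111 among them), against 0.547% over 11 in places 61 to 80. In each library the block of places 61 to 80 stood between 5.84% and 6.13%, and that of places 81 to 100 between 5.57% and 5.84%.

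The 80 genes nearest to Igkc were the top genes of 46.7% and 49.5% of assigned cells in the Cured libraries and of 46.9% and 48.2% in the Relapsed libraries. The means were 48.1% ± 1.94 and 47.6% ± 0.896 (SD, n = 2 each; exact permutation test, p = 1), and the groups overlapped. Genes opposite to Igkc held 52.6% and 53.3% against 51.1% and 53.7% (means 52.9% ± 0.494 and 52.4% ± 1.86, exact permutation test, p = 1). These genes are 62 of the 100 variable genes. Leaving out Relapsed replicate 1 turned the sign of both differences, to -0.0967 and -0.787 percentage points, and leaving out Cured replicate 2 turned that of the first, to -0.838.

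**Figure D2:**
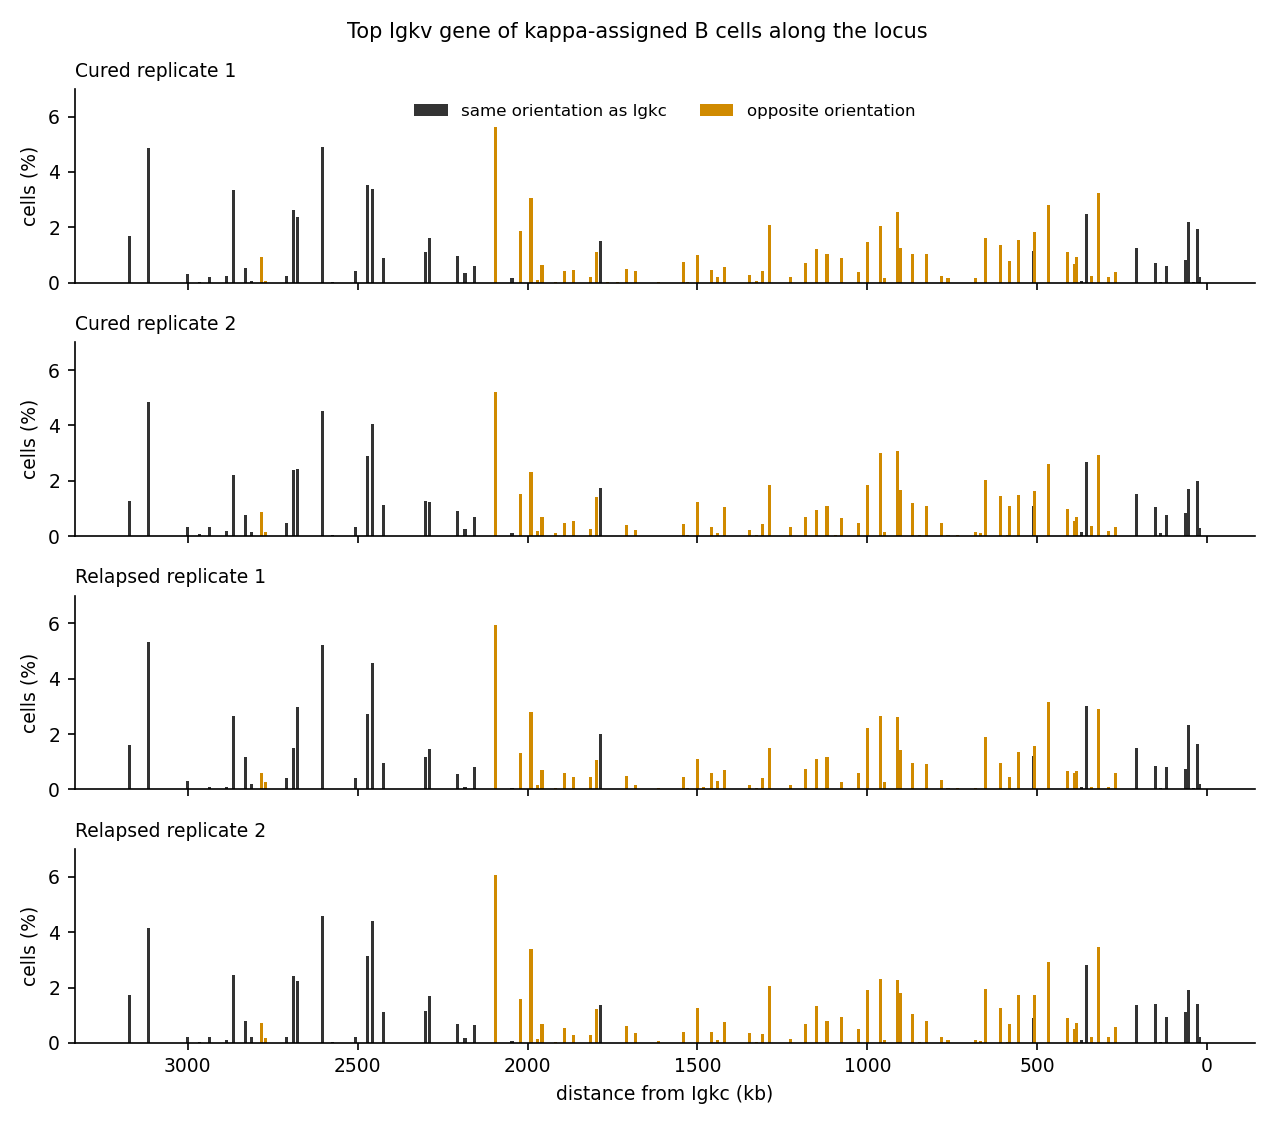
Share of kappa-assigned B cells (y axis, %) by the distance of their top gene from Igkc in kb (x axis, Igkc at the right), 1 panel per library, bars coloured by orientation to Igkc. The 4 panels show the same tall bars, from Igkv10-96 at 5.20% to 6.08% down to low bars between 1149.9 kb and 1815 kb.

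By family, Igkv1 genes were used most, by a mean of 15.01% of assigned cells over 13 genes (14.5%, 15.1%, 16.4% and 14.1% by library). Igkv6 followed with 13.0% over 9 genes, at 12.5% ± 0.0887 in the Cured group and 13.5% ± 0.104 in the Relapsed group (SD, n = 2 each). The Igkv6 libraries did not overlap between groups, 12.5% and 12.4% against 13.5% and 13.4%. Nor did those of Igkv8, Igkv11 and Igkv14, whereas no other family was without overlap. Igkv14 was higher in Cured, 5.23% and 4.90% against 4.53% and 4.79%. Igkv11 was lower in Cured, 0.0752% and 0.135% against 0.201% and 0.225%, and rested on 17 cells in all. An SD of 2 libraries is poorly known and cannot be read as the error of a group. Igkv4, the largest family with 33 genes, all opposite to Igkc, held 11.9% (11.5% to 12.3%). Igkv3 held 8.17%, Igkv12 7.72%, Igkv10 7.38%, Igkv8 7.32% and Igkv17 4.90%. Igkv8 was lower in both Relapsed libraries, 8.01% and 7.94% against 5.89% and 7.43%, with Relapsed replicate 1 the lowest.

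The UMI share ranked the genes differently, because cells with different genes carried different numbers of UMIs. Igkv1-117 took the most UMIs, 7.26%, 6.55%, 7.25% and 7.09%, and Igkv10-96, first by cells, was in place 6 at 3.58%, 3.82%, 3.81% and 4.24%. Cells with Igkv10-96 on top carried a median of 14 of its UMIs, those with Igkv1-117 a median of 31, with Igkv6-15 32 and with Igkv1-135 21. For 66 genes with at least 30 top cells this median ran from 5 to 33. The order of the genes by this median was much alike in each pair of libraries (Spearman's rho 0.937 to 0.964 over 55 genes, as a description).

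The Igkv4 family stood at the low end. The medians of its 15 genes ran from 5 to 12.5 UMIs per cell, with a median of 7, against 6 to 33, with a median of 21, for the 51 genes of other families. Per kb of transcript the medians were 19.9 and 54.2 UMIs. Of the 20 genes with the lowest medians, 14 were Igkv4 genes, Igkv4-68, Igkv4-79 and Igkv4-61 the lowest at 5. The family thus held 11.9% of cells but 6.77% of Igkv UMIs, whereas Igkv1 held 15.01% and 19.3%. Across the 66 genes the median had a rho of -0.11 with the length of the annotated untranslated bases, -0.14 with transcript length, 0.07 with identity to the closest relative and 0.35 with usage, as descriptions. What sets the lower numbers of the family was not tested.

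**Figure D3:**
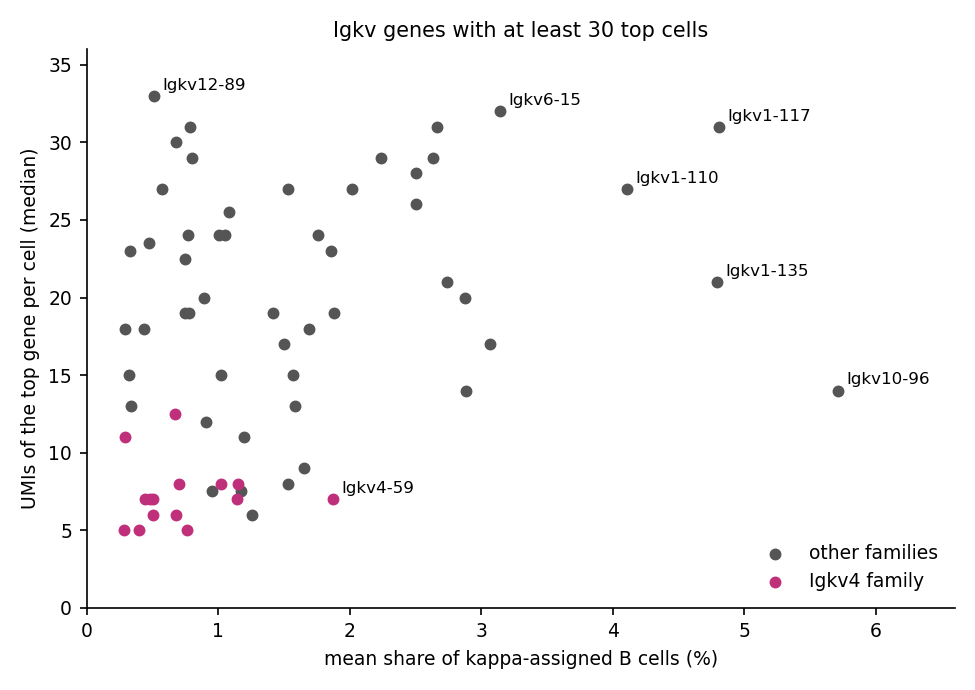
Median UMIs of the top gene per cell (y axis) against mean share of kappa-assigned B cells (x axis, %) for the 66 Igkv genes with at least 30 top cells in the 4 libraries together, 1 point per gene. The 15 Igkv4 genes lie at 5 to 12.5 UMIs, and the most used gene, Igkv10-96, lies at 14.

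Single cells set the UMI share of some genes. In Cured replicate 1 a single B cell carried 1932 UMIs of Igkv4-59, 76.0% of the library's UMIs of this gene, with 424 UMIs of Jchain, the chain that joins secreted antibody units and marks antibody-secreting cells. Igkv4-59 therefore took 3.51% of Igkv UMIs there, against 0.878%, 0.651% and 0.806% in the other libraries, while its share of cells was 2.07%, 1.86%, 1.51% and 2.06%. In Relapsed replicate 2 a single cell carried 507 UMIs of Igkv4-80, 77.6% of that library's, with 137 Jchain UMIs. Igkv4-80 took 0.935% of UMIs there against 0.199% to 0.246% elsewhere, and 0.406% to 0.611% of cells. These were the B cells with at least 3 Jchain UMIs, 1 in each of the libraries named and 0 in the others.

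Pseudogenes were almost never the top gene. Of the 10713 assigned cells, 13 (0.121%) had a pseudogene on top, from 5 of the 60 pseudogenes, and pseudogenes took 864 of 254614 Igkv UMIs. In 80.2% to 82.2% of assigned cells the top gene held at least 80% of the Igkv UMIs. A second Igkv gene with at least 3 UMIs and 10% of the cell's Igkv UMIs was found in 2237 cells (20.9%). By library the share was 22.6% and 23.0% in Cured and 17.5% and 19.6% in Relapsed. At 1000 UMIs per cell it was 15.2%, 14.6%, 9.14% and 12.5% in the same order. The median ratio of second to top UMIs was 0.444.

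The second genes were not drawn like the top genes. Pseudogenes made up 4.07% of them (91 cells), at 4.50%, 4.25%, 4.32% and 3.29% by library, against 0.150%, 0.101%, 0.101% and 0.129% of top genes. The pseudogene Igkv4-60 was second in 22 cells and top in 0, and the pseudogene Igkv4-77 second in 25 and top in 4. Igkv1-135 was the most frequent second gene, in 186 cells (55, 63, 27 and 41 by library, or 9.17%, 9.24%, 7.78% and 6.74% of second genes). Igkv1-117, on top in 510 cells against 507 for Igkv1-135, was second in 41. Igkv19-93 was second in 77 cells and Igkv10-96 in 67.

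A second gene was more frequent in cells whose top gene lay in the orientation of Igkc, 23.6% (1194 of 5052 cells), than in cells whose top gene lay opposite, 18.4% (1043 of 5661). The same order held in each library, with 25.6%, 25.5%, 20.2% and 22.5% against 19.9%, 20.9%, 14.9% and 17.1%. A second gene needs at least 3 UMIs and fewer than the top gene, so cells with few Igkv UMIs can hardly have one. Opposite genes, all Igkv4 genes among them, held 46.0%, 46.5%, 44.0% and 46.8% of Igkv UMIs, less than their share of cells. The part of UMI numbers in the difference by orientation was not tested. The second gene was the next variable gene along the locus in few cells, 42 on the side away from Igkc and 47 on the side towards it. The most frequent such neighbours were Igkv17-121 as second to Igkv9-120 (12 cells) and Igkv14-111 as second to Igkv1-110 (11 cells), both the next gene away from Igkc. Transcripts of a second allele, of a second cell in the droplet and of free RNA cannot be told apart in these counts, and no doublet caller was run.

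**Figure D4:**
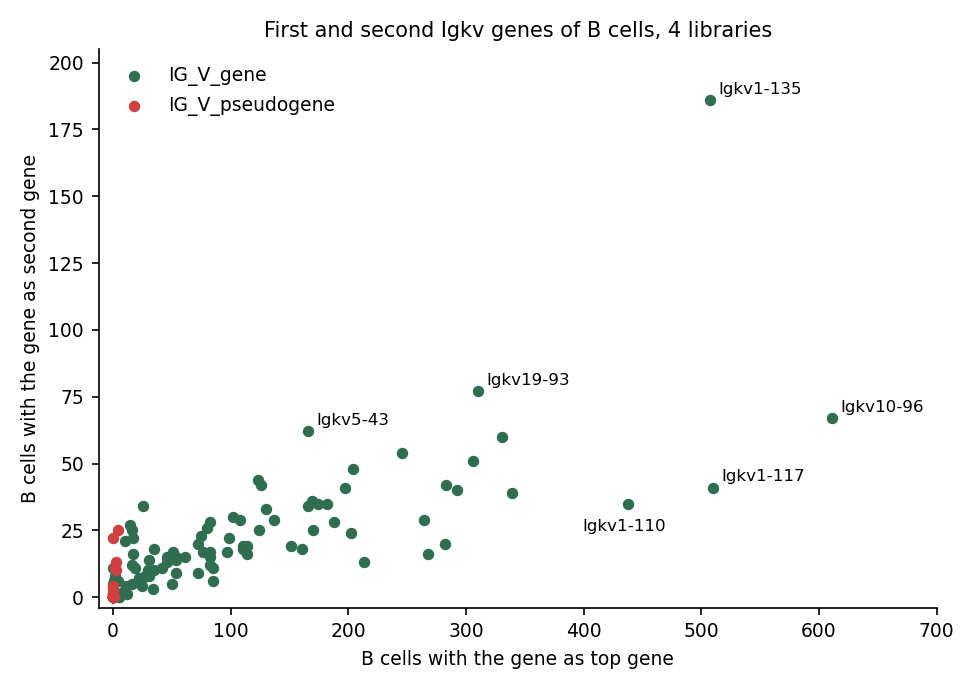
Number of B cells in the 4 libraries together with each Igkv gene as second gene (y axis) against the number with it as top gene (x axis), 1 point per gene, 160 genes. Igkv1-135 stands at 186 second and 507 top cells, and pseudogenes lie at 4 or fewer top cells.

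Lambda light chain use was read beside it. B cells with at least 2 UMIs of a lambda variable gene numbered 305, 344, 222 and 358, and 190, 203, 121 and 206 of them also had a top Igkv gene. B cells with neither numbered 56, 57, 85 and 65, most in Relapsed replicate 1. Of the cells with at least 2 lambda variable UMIs, 180, 201, 148 and 238 carried more of these than of all Igkv UMIs. In each library some of those cells had a top Igkv gene too, so a top Igkv gene did not always mean mainly kappa. B cells with at least 10 Igkv UMIs and no lambda variable UMI still carried a median of 7, 7, 6 and 7 UMIs of the lambda constant genes, so those constant genes did not separate the 2 chain types.

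The cells left out for a Cdkn2a UMI numbered 3, 31, 31 and 68. Of these, 3, 26, 23 and 47 had a top Igkv gene, spread over 3, 21, 16 and 27 genes. The most frequent was Igkv8-24 with 6 cells in Relapsed replicate 2.

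The amount of Igkv RNA, unlike the profile of usage, was lower in both Relapsed libraries. Igkv UMIs made up 1.07% and 1.00% of the B cells' UMIs in the Cured libraries and 0.721% and 0.956% in the Relapsed libraries, for 72482, 79581, 32719 and 69832 UMIs. The medians per B cell were 22, 22, 12.5 and 18. At 1000 UMIs per cell the means were 10.8, 10.3, 7.40 and 9.68 UMIs. Relapsed replicate 1 stood lowest on each of these measures.

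Igkc did not follow the variable genes. It was at a mean of 3.71 and 3.83 UMIs per B cell in the Cured libraries and 4.92 and 3.70 in the Relapsed libraries. The ratio of Igkv to Igkc UMIs was thus 6.90, 6.58, 3.06 and 5.68. For the heavy chain the ratio of variable (Ighv) UMIs to those of Ighm and Ighd, the IgM and IgD constant genes, was 1.23, 1.02, 0.202 and 0.713. The lambda constant genes stood at 6.99, 7.75, 6.04 and 7.06 UMIs per B cell, lowest in Relapsed replicate 1 as the Igkv UMIs were. Relapsed replicate 1 was the lowest in both ratios, and it is also the library with haemoglobin UMIs in 13.8% of its B cells and the lowest median depth. Their part in the lower ratio was not tested.

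**Figure D5:**
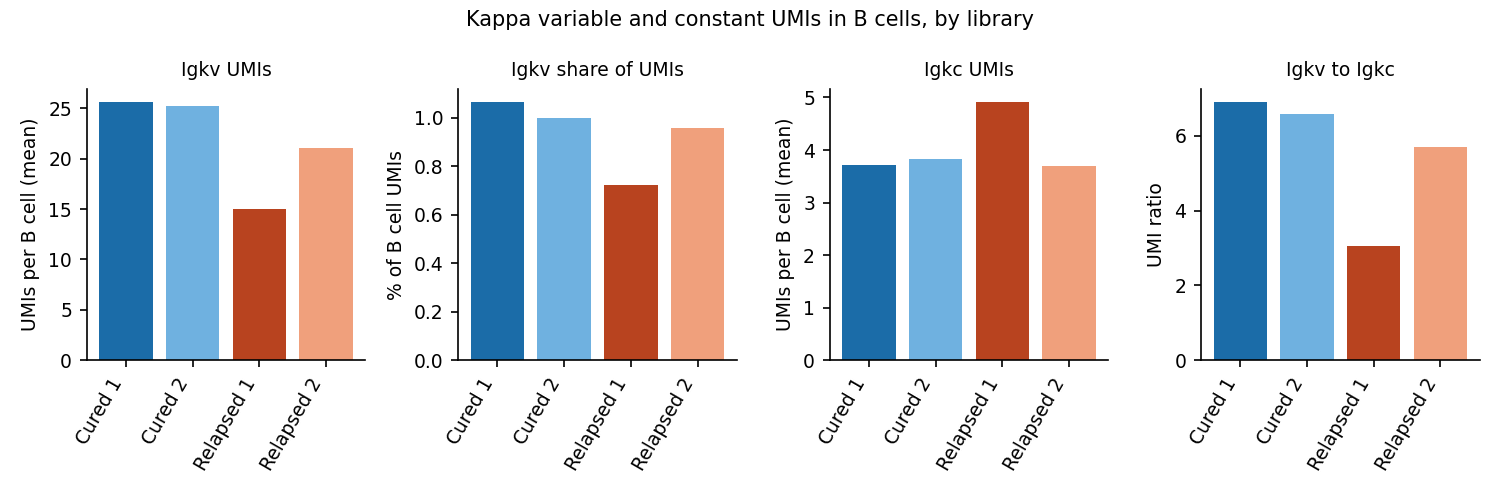
Mean Igkv UMIs per B cell, Igkv share of B cell UMIs (%), mean Igkc UMIs per B cell and the ratio of Igkv to Igkc UMIs (y axes from left to right), 1 bar per library, with no error bars because each bar is 1 pool. Relapsed replicate 1 is lowest for Igkv at 15.1 UMIs per B cell, highest for Igkc at 4.92, and lowest for the ratio at 3.06.

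UMIs summed over B cells per library were compared between groups with the quasi-likelihood test of edgeR, fitted over all 10451 features that passed its filter on low counts. It called 0 features at an adjusted p under 0.05 (0% of those tested, 920 of them at an unadjusted p under 0.05), so it called 0 of the 99 Igkv genes tested. DESeq2 called 0 Igkv genes and 4 features in all. At an unadjusted p under 0.05 there were 22 Igkv genes, 21 of them higher in Cured, against 211 of the 920 features. The other 61 Igkv genes did not pass the filter, and 1 of the 99 passed it through the Cured libraries alone.

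Without a call, the Igkv genes leaned one way. Of the 99, 80 had a higher estimate in Cured, and the median log2 fold change (Cured over Relapsed) was 0.30 against -0.00 for all features. The CPM (counts scaled to a common total of the library's B cell UMIs) did not overlap between groups in 46 Igkv genes (46.5%), against 44.8% of all features. In 40 of the 99 it was higher in Cured without overlap, a larger share than the 21.3% of all features tested. The lean was smaller without Relapsed replicate 1. Without that library the median was 0.17, and without Relapsed replicate 2 it was 0.53. In these fits the lone library is assumed to vary like the other group. Counting, per library, the B cells with at least 3 UMIs of a gene gave the Igkv genes a median of 0.07 against 0.42 for all features. The order of the medians thus turned, but on another scale. These counts were scaled to the number of B cells and not to their UMIs, so depth was not evened out. Median UMIs per B cell were lower in both Relapsed libraries, and their part in these medians was not tested.

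Among the Igkv genes tested, Igkv1-88 had the smallest p. It stood at 47.6 and 58.2 CPM in the Cured libraries and 30.6 and 21.6 CPM in the Relapsed libraries, a log2 fold change of 1.04 (SE 0.21, edgeR adjusted p = 0.542). Its CPM values do not overlap between groups, yet it was the top gene of only 12, 16, 9 and 9 cells. Igkv1-99 stood at 52.7 and 29.5 against 13.1 and 18.8 CPM, with 9, 8, 2 and 5 top cells (log2 fold change 1.34, SE 0.29). Igkv3-2, among the nearest genes to Igkc, stood at 233.9 and 215.3 against 155.0 and 144.3 CPM (0.59, SE 0.14). The next by p were Igkv8-34 (1.31, SE 0.32, with 4, 4, 1 and 3 top cells), Igkv14-100 (0.70, SE 0.18) and Igkv4-58 (1.15, SE 0.31). Each of these 6 had an edgeR adjusted p of 0.542.

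Among the 15 most used genes the estimates ran from 0.06 for Igkv1-110 to 0.66 for Igkv17-121. Igkv10-96 stood at 385.2 and 380.1 CPM in the Cured and 272.7 and 409.3 CPM in the Relapsed libraries, which overlap (log2 fold change 0.16, SE 0.19, edgeR adjusted p = 0.776). Igkv1-117 was at 780.1 and 651.9 against 518.9 and 684.6 CPM (0.25, SE 0.16), and Igkv1-110 at 475.4 and 507.7 against 389.0 and 555.7 CPM (0.06, SE 0.18). Igkv1-135 was at 610.8 and 592.2 against 404.5 and 458.3 CPM, with no overlap (0.48, SE 0.13, edgeR adjusted p = 0.542). Igkv12-44 was at 341.9 and 421.3 against 231.3 and 298.2 CPM, also with no overlap (0.53, SE 0.17, edgeR adjusted p = 0.542). Igkv17-121, lowest by cells in Relapsed replicate 1, was at 414.4 and 336.3 against 150.2 and 324.0 CPM (0.66, SE 0.35, edgeR adjusted p = 0.605). Igkv17-127 (0.45, SE 0.20) and Igkv14-111 (0.43, SE 0.20) also lay above the median of the Igkv genes.

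Igkv14-126, highest by cells in Relapsed replicate 1, was at 87.1 and 88.8 against 132.7 and 105.2 CPM (-0.43, SE 0.16, edgeR adjusted p = 0.542). Igkv8-28 was at 72.7 and 100.6 against 32.1 and 62.3 CPM (0.86, SE 0.29, edgeR adjusted p = 0.542).

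A list of 44 genes of light chain expression and recombination was read in the same fit. It holds the constant genes, receptor signalling genes, transcription factors of the kappa enhancers and the V(D)J recombinase with its repair partners. Of these, 34 were tested and 0 were called in either direction. The recombinase genes Rag1 and Rag2, with Dntt, Vpreb1, Igll1 and the kappa J segments, did not pass the filter and were not tested. At an unadjusted p under 0.05 there were 6, all lower in Cured, the direction of most of the 920 features at such a p (211 were higher), and the median of the 34 was -0.10 against -0.00 for all features.

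The 6 were constant genes and transcription factors. Igkc stood at 1558 and 1513 CPM in the Cured and 2337 and 1700 CPM in the Relapsed libraries (log2 fold change -0.39, SE 0.15). Ighm was at 936.9 and 932.6 against 1724 and 1131 CPM (-0.61, SE 0.18) and Ighd at 524.4 and 563.5 against 978.2 and 673.8 CPM (-0.60, SE 0.18). Pax5, which holds B cell identity, was at 87.5 and 103.1 against 188.5 and 116.1 CPM (-0.67, SE 0.22). Pou2f1 (-0.55, SE 0.20) and Pou2f2 (-0.48, SE 0.18) encode the octamer-binding factors of immunoglobulin promoters. All 6 had an edgeR adjusted p of 0.542, and in each gene the libraries did not overlap between groups, as in 18 (52.9%) of the 34 and 44.8% of all features. Without Relapsed replicate 2 the test called 9 genes of the list, 8 of them lower in Cured, among 1544 of 10810 features called, and without each of the other libraries 0. Leaving out Relapsed replicate 1 brought the estimates nearer to 0, to -0.14 for Igkc, -0.27 for Ighm, -0.30 for Ighd, -0.28 for Pax5 and -0.28 for Pou2f2.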

How the data were processed

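Single-cell libraries of the 10x Genomics 5′ kit, sequenced on a NovaSeq instrument per the labels' protocols, were used as deposited, as raw UMI counts per gene and barcode. Per the submitters' processing notes, the authors made these counts with Cell Ranger 3.1.0 against mm10, and the file headers give the same software version. The annotation release is not given in the sources used here. Gene types, strands and coding sequences came from GENCODE M21 on GRCm38, where all 160 identifiers were found.

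Barcodes with fewer than 200 genes or over 10% mitochondrial UMIs were left out. No doublet caller was run. B cells with UMIs of other cell types' markers were kept, and left out as an alternative. UMIs were summed per library over B cells and tested with edgeR 4.0.16 (TMM, filterByExpr with a minimum of 10 UMIs, robust quasi-likelihood fit) under R 4.3.3. P-values were adjusted by Benjamini-Hochberg over all 10451 features, with a threshold of 0.05. DESeq2 1.42.0 was an alternative. The procedure was tested on simulated data. Single values per library were compared by exact permutation. The pool was the replicate, with 2 per group. The edgeR p-values set the group difference against a spread between pools that is partly borrowed across features. The exact permutation p cannot fall below 0.333. Libraries of 1 group differed by more than counting noise (chi-square per feature 4.19 in Cured and 14.3 in Relapsed).

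Named genes were the 15 most used, the 6 Igkv genes with the smallest p (as none passed), the 5 with the largest ratio of highest to next library among those reaching 1%, and the 6 of the list with the smallest p. Second genes, families and the Jchain cells lie outside that rule and were chosen after their values were seen. Members, lists and rules were chosen with earlier results of these data known. Promoters, recombination signals and proteins were not used here.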

Additional observations from a re-analysis of the deposited data

How the results depend on the processing

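Each result was recomputed under other rules for B cells, top genes, filters, scaling and libraries. Those for the list of kappa expression genes, for the usage of the 15 genes and for the UMI index without each library's highest cell were chosen after seeing the data. Of the values for whole comparisons, 52 kept their size and 11 moved, apart from fits without 1 library (19 and 5). The count of called Igkv genes, 0, was 11 with no filter on low counts (163 of all features) and 5 with the replicate number as a block (63 of all features). Each fit without 1 library, which leaves a group with 1 library, called some Igkv genes as well. The count of 0 thus depends on the setting. The list's count, 0, was 2 with no filter, 1 with the replicate block, and 0 to 9 without 1 library. The replicate numbers are labels only: same-numbered libraries deviated together with a correlation of 0.0679 over all features and -0.32 over Igkv genes. The cause of these moves was not tested.

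The difference in effective number, 2.44, was 4.39 with at least 10 UMIs for a top gene, 0.371 over Igkv UMIs and 0.536 over UMIs without each library's highest cell. Without 1 library it ran from 1.36 to 3.52. The difference for genes opposite to Igkc, 0.526, was 2.98 with at least 10 UMIs and ran from -0.787 to 1.84 without 1 library, and that for the 80 nearest genes from -0.838 to 1.91. The difference in assigned cells, 1.38, was 2.76 at 1000 UMIs per cell, 12.3 with at least 10 UMIs and -0.567 where the top gene had to hold 80% of Igkv UMIs, and ran from 0.368 to 2.40 without 1 library. The usage of the 15 genes kept its size in 127 values and moved in 23, all with at least 10 UMIs for a top gene or over Igkv UMIs, and in none of 60 without 1 library.

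Of 32 named fold changes (log2), 13 changed sign somewhere. Apart from fits without 1 library, an edgeR or DESeq2 adjusted p under 0.05 arose with the sign kept in 14 values. Another 323 values kept their sign without such a p. It arose more often in fits without 1 library. Some of the named genes had been picked by smallest p. The next values come from counts scaled to the number of B cells and not to their UMIs. Counting B cells with at least 3 UMIs moved the median of all features to 0.42, and there Igkv10-96 was at -0.0597, Igkv1-117 at -0.00561, Igkv1-110 at -0.192, Igkv6-15 at -0.000977, Igkv19-93 at -0.0407, Igkv6-23 at -0.0714, Igkv6-17 at -0.254, Igkv9-120 at -0.0551, Igkv12-46 at -0.0289, Igkv3-4 at -0.0385 and Igkv3-5 at -0.339. Without 1 library in turn, Igkv10-96 ran from -0.0920 to 0.497, Igkv1-110 from -0.172 to 0.346, Igkv6-15 from -0.162 to 0.629, Igkv19-93 from -0.284 to 0.568, Igkv6-17 from -0.0273 to 0.282, Igkv3-4 from -0.0925 to 0.350, Igkv4-68 from -0.0794 to 0.345, Igkv3-10 from -0.741 to 0.315 and Igkv3-5 from -0.270 to 0.644. The lowest values of those whose sign turned came without Relapsed replicate 1, except for Igkv3-4 (without Cured replicate 1) and Igkv4-68 (without Cured replicate 2), and Igkv3-10 was above 0 without Relapsed replicate 2 only. Depth limits genes with few top cells, and 61 Igkv genes were too low to test.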
